A study of Mus musculus with 30 samples.

Results

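Klra2, the gene of the receptor Ly49B, was described in bone marrow–derived dendritic cells (BMDCs) of mice labelled wild-type (WT) or Cacnb3-/-. It is 1 of 43629 genes in the table of read counts and was found by its Ensembl identifier, ENSMUSG00000030187, which matched 1 symbol. The gene was chosen with results of these data known: of 12706 genes compared between genotypes in the libraries named 24h, it had the lowest unadjusted p, at rank 1. Its levels and differences are therefore given as descriptions without a test, and nothing is read from the values that chose it.

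The Ly49 receptors, encoded by the Klra genes, are C-type lectin-like molecules of the natural killer (NK) gene complex, and many of them bind major histocompatibility complex (MHC) class I on other cells. Inhibitory members carry an immunoreceptor tyrosine-based inhibitory motif (ITIM) in the cytoplasmic tail, which recruits phosphatases such as SHP-1 (Ptpn6) and dampens activation, whereas activating members pair with the adaptor DAP12 (Tyrobp). Most Ly49 receptors are known from NK cells, but Ly49B is an ITIM-bearing member known from myeloid cells.

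The study asked which transcripts depended on Cacnb3, the β3 subunit of voltage-gated calcium channels, after a pulse of extracellular ATP, a danger signal released by damaged cells. BMDCs were grown from bone marrow with granulocyte-macrophage colony-stimulating factor (GM-CSF) for 6 days, and the protocol gave 500 µM ATP for 30 min with harvest directly or after 24 h. Each of 5 WT and 5 Cacnb3-/- cultures gave 3 libraries, named ctrl, 0p5h and 24h, which makes 30 libraries in 6 groups of 5. Names and treatment field disagree in the labels: ctrl libraries carry the entry for 30 min of ATP there, 0p5h libraries the entry for vehicle, and only 24h libraries agree in both, so sets are called by their names and no direction of an ATP effect is drawn from ctrl and 0p5h. The mice were 6 to 12 weeks old, and the labels do not say whether a culture number stands for 1 animal, so the spread between cultures may be partly technical. WT mice were C57BL/6J and Cacnb3-/- mice C57BL/6N, so that genotype and substrain cannot be told apart. GM-CSF cultures hold a mixture of cells, and in bulk RNA fewer cells of a type and less RNA per cell cannot be told apart.

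The targeted transcript was not lost in libraries labelled Cacnb3-/-. Cacnb3 was counted in all 30 libraries, from 573 to 1331 counts per 1000000 (CPM) in those labelled Cacnb3-/- and from 1035 to 2143 CPM in those labelled WT. The deleted part of the allele is not given in the sources used here, and gene-level counts over all exons do not show it. Nnt, which carries a deletion in C57BL/6J, also had like levels, at 9.82 ± 1.43 CPM in WT and 9.80 ± 0.99 CPM in Cacnb3-/- libraries named 24h (SD, n = 5 each). Each direction between genotypes below therefore rests on the labels. Total counts were between 8237393 and 32164225 reads per library.

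The gene spans 131219223 to 131247362 on the reverse strand of chromosome 6 (GRCm38), with 1898 bases of exons in 9 blocks. No other gene of the table overlaps it. The other 12 genes of the Klra list lie together between 129831154 and 130386874, so that 832348 bases separate Klra2 from the nearest of them. On its lower side the nearest genes of the table were Gm5581, Gm8837, Gm6600, Gm21940 and Gm27047, none with more than 4 reads in any library. On the upper side lay Gm5582 and Gm22362, with at most 1 read, Styk1, a receptor-like kinase gene at 0.29 CPM, Magohb, an exon junction complex gene at 8.46 CPM, and Ybx3, a gene of a cold shock protein at 92.1 CPM. Across libraries, r with Klra2 was 0.14 for Magohb and 0.16 for Ybx3, on log2 CPM. In libraries named 24h the difference between genotypes (Cacnb3-/- minus WT) was 1.13 on the log2 scale for Magohb (SE 0.30, adjusted p = 0.0515, edgeR), which lies 37025 bases from Klra2, and 0.43 for Ybx3 (SE 0.16, adjusted p = 0.0787, edgeR), 117495 bases away. Neither was called. The value of 0.0515 was the smallest adjusted p of that comparison (edgeR) and was shared by other genes, among them Ccr2, Ccr7, Fscn1 and Il4i1. Magohb has a GC content of 39.0%, and its difference is given without the removal of the GC trend described for Klra2 below.

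The 250 bases before the annotated start of Klra2 are shown because the levels of many genes moved with it and this is the stretch in which shared short motifs were looked for. It runs from chr6:131247363-131247612 (GRCm38.p6, RefSeq), read 5′ to 3′ on the reverse strand, and the capitals mark the matches to TGGAAA, a core of NFAT sites, and to TTNNGCAA, a C/EBP site.
Klra2 upstream: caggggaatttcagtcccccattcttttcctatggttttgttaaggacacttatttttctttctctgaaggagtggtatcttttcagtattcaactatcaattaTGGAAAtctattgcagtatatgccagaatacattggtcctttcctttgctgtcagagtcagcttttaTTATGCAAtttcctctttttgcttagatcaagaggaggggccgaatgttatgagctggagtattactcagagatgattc
The NFAT core began 146 bases before the start and the C/EBP letters 79 bases before it. Of 32841 RefSeq stretches of the same length, 18.6% held TGGAAA and 9.57% held TTNNGCAA on either strand. TGANTCA (AP-1), TGACGTCA (CRE), GAGGAAGT (PU.1) and CACGTG (E-box) had no match there, while between 1.55% (CRE) and 6.75% (AP-1) of all stretches held them. Of the genes whose level varied most with Klra2, listed below, 8 of the 11 with a high r and 6 of the 8 with a low r matched a RefSeq entry. TGGAAA was held by 3 of the 8 and 1 of the 6, TTNNGCAA by 1 and 0, TGANTCA by 1 and 0, GAGGAAGT by 2 and 0, CACGTG by 0 and 2, and TGACGTCA by 0 of both. These letters describe the windows and mark no site of binding.

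Klra2 was a low but detected transcript. Between 17 and 192 reads were counted on it per library (median 63), which gave 1.27 to 8.12 CPM, a 6.41-fold range. Per kilobase of exon its mean was 1.95 CPM, and 33.6% of the 13755 genes kept over the 30 libraries lay below it. Counting alone was a visible part of the spread at these depths: the library with 17 reads had 1.27 CPM with an exact 95% Poisson interval from 0.74 to 2.03, and the one with 192 reads had 8.12 CPM with an interval from 7.01 to 9.35. These intervals cover counting error only.

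In WT cultures the level was narrow. In the order of cultures p974s846, p974s850, p974s855, p974s856 and p974s864, Klra2 reached 2.502, 2.95, 2.65, 4.09 and 3.79 CPM in ctrl libraries. In those named 0p5h it reached 3.08, 2.31, 3.03, 3.998 and 3.97 CPM. In those named 24h it reached 2.20, 2.06, 1.60, 2.03 and 2.02 CPM. All WT libraries named 24h lay below all WT libraries of the other two sets. The means were 3.20 ± 0.71, 3.28 ± 0.71 and 1.98 ± 0.23 CPM (SD, n = 5 each). The SD of 0.23 CPM at 24h was below the 0.33 CPM that counting alone gives at these depths.

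In Cacnb3-/- cultures the level was higher on average and spread more widely. In the order of cultures p974s843, p974s851, p974s852, p974s853 and p974s865, it was 4.46, 4.17, 2.99, 3.08 and 8.12 CPM in ctrl libraries. In those named 0p5h it was 5.67, 4.29, 1.27, 1.73 and 7.56 CPM. In those named 24h it was 7.32, 4.26, 3.52, 5.01 and 5.07 CPM. Culture p974s865 was the highest in ctrl and 0p5h, p974s843 was the highest in 24h, and p974s852 was the lowest in every set. The means were 4.56 ± 2.09, 4.10 ± 2.65 and 5.04 ± 1.42 CPM (SD, n = 5 each). In the libraries named 0p5h the SD was 5.55 times what counting gives, against 1.78 times in WT.

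**Figure D1:**
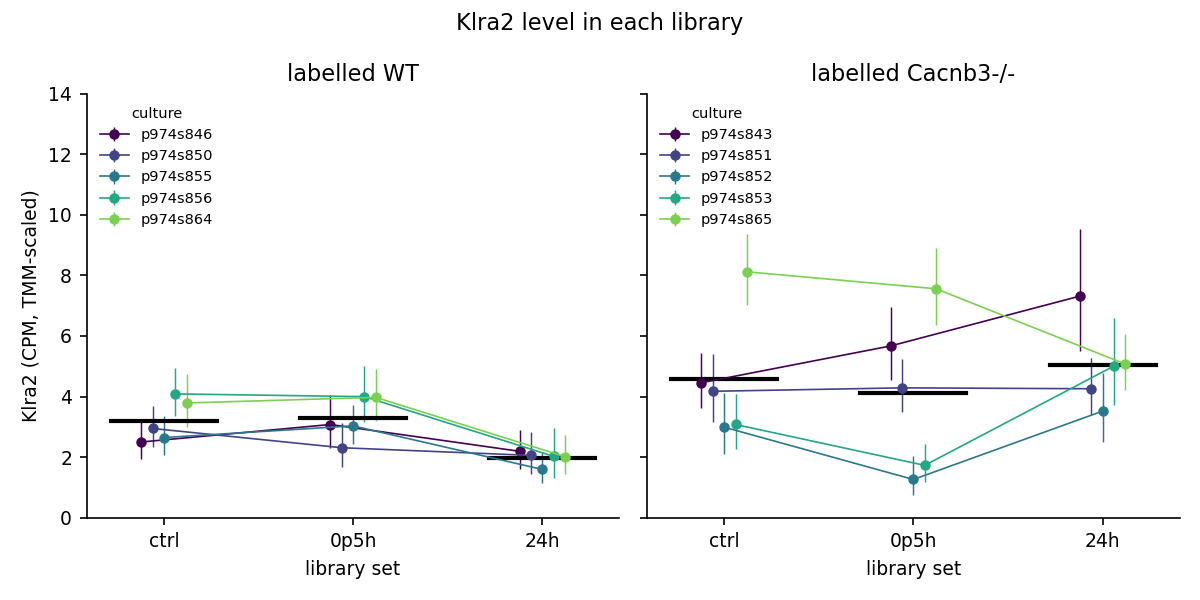
Klra2 in CPM (TMM-scaled, linear axis) for each library, by set on the x axis, with libraries of a culture joined by a line, 95% Poisson intervals as thin bars and group means (n = 5) as black bars. The 5 WT libraries named 24h sit between 1.60 and 2.20 CPM, below all other WT libraries, and the Cacnb3-/- libraries spread from 1.27 to 8.12 CPM.

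Ordered by mean, the groups ran from WT 24h (1.98 CPM) over WT ctrl (3.20), WT 0p5h (3.28), Cacnb3-/- 0p5h (4.10) and Cacnb3-/- ctrl (4.56) to Cacnb3-/- 24h (5.04). The libraries of neighbouring groups overlapped at every step of this order except between WT 24h and WT ctrl. Of the 15 pairs of groups, 4 did not overlap, and each of these 4 had WT 24h as the lower group. WT 24h is part of the contrast that chose the gene, so its place apart is no independent support. Among all genes, 1.02% lay without overlap lower in WT 24h than in WT ctrl, 2.17% than in WT 0p5h and 2.72% than in Cacnb3-/- 24h. No such share is given for Cacnb3-/- ctrl. The libraries of WT 24h did overlap those of Cacnb3-/- 0p5h, where 2 cultures were at 1.27 and 1.73 CPM.

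Averaged over the 3 libraries, WT cultures lay between 2.43 and 3.37 CPM and Cacnb3-/- cultures between 2.59 and 6.92 CPM. The lowest Cacnb3-/- cultures, p974s852 at 2.59 and p974s853 at 3.27 CPM, fell within the WT range. Culture p974s851 lay at 4.24, p974s843 at 5.81 and p974s865 at 6.92 CPM, above every WT culture.

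Between genotypes, the fitted difference (Cacnb3-/- minus WT) was 0.55 on the log2 scale in libraries named ctrl (SE 0.29), 0.34 in 0p5h (SE 0.42) and 1.35 in 24h (SE 0.23), the latter a 2.55-fold higher level. The libraries named 24h did not overlap between genotypes. In that set, 2.72% of the 12706 genes tested had no overlap with higher values in Cacnb3-/-, and 0% were called by edgeR at an adjusted p under 0.05 and at least 2-fold (at an unadjusted p under 0.05 there were 4877 genes, and 637 were called by DESeq2). The study, which used DESeq2 with the same thresholds, reported no gene that differed between genotypes at any time point. The source of this departure was not tested. As Klra2 was chosen by this contrast, nothing is read from its place among the genes of this set. In ctrl and 0p5h the libraries of the genotypes overlapped, where 0.653% and 0.921% of genes had no overlap with higher values in Cacnb3-/- and 1.27% and 1.13% with lower ones (3.79% at 24h). Without culture p974s865 the difference in ctrl was 0.23 (SE 0.23) and that in 0p5h was 0.00 (SE 0.40), while that in 24h was 1.35 (SE 0.25).

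The base composition of the libraries named 24h also differed between genotypes on average. Klra2 transcripts have a GC content of 38.1%, and 1.97% of the genes kept have as little or less (median 49.4%). The slope of log2 level on GC content, per 10 percentage points of GC, was 0.17 ± 0.22 in WT and −0.36 ± 0.24 in Cacnb3-/- libraries named 24h (SD, n = 5 each), with culture p974s865 (0.05) apart from the other Cacnb3-/- libraries and culture p974s856 (0.55) apart from the other WT ones. With each library's GC trend removed, the difference at 24h was 0.71 (SE 0.28), that in ctrl 0.38 (SE 0.34) and that in 0p5h 0.20 (SE 0.45). The genotypes did not overlap at 24h, so any split by lane gives the same order and the lane values are listed as a description. In lane L001 the Cacnb3-/- library was at 4.26 CPM against 2.02 and 2.06 in WT, in L002 at 5.07 against 2.03 and 2.20, and in L003 the 3 Cacnb3-/- libraries ran from 3.52 to 7.32 against 1.60 CPM. With lane as a covariate the 24h difference was 1.36 on the log2 scale.

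Within WT cultures Klra2 differed little between ctrl and 0p5h (0.05 on the log2 scale, SE 0.21), with 3 cultures higher and 2 lower. From ctrl to 24h it was lower in all 5 cultures, with changes of −0.18, −0.50, −0.69, −0.97 and −0.87 on the log2 scale in the order of cultures given above, and the fitted change was −0.68 (SE 0.20), a level 1.60-fold lower. From 0p5h to 24h it was lower in all 5 as well, with a fitted change of −0.72 (SE 0.20). Among all genes tested, 11.6% were lower in every WT culture from ctrl to 24h and 14.5% from 0p5h to 24h, and 1.02% and 2.17% had no overlap in that direction. These changes share the libraries named 24h with the contrast that chose the gene and are no independent support for it.

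Cacnb3-/- cultures did not move together. From ctrl to 0p5h, 2 were higher and 3 lower, with the largest step in p974s852 (−1.18 on the log2 scale). From ctrl to 24h, by culture number, 4 were higher and p974s865 was lower (−0.67). The numbers were not shown to pair the Cacnb3-/- libraries of these sets, so these single steps are a description only. From 0p5h to 24h, p974s852 and p974s853 were higher by 1.40 and 1.48 and p974s865 was lower (−0.57). The fitted changes were −0.17 (SE 0.45), 0.12 (SE 0.30) and 0.29 (SE 0.43), each smaller than its SE. With the GC trend removed, the changes to 24h turned to −0.26 from ctrl (SE 0.38) and −0.13 from 0p5h (SE 0.47).

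The change from ctrl to 24h differed between genotypes by 0.80 on the log2 scale (Cacnb3-/- minus WT, SE 0.36), and that from 0p5h to 24h by 1.02 (SE 0.49). Removal of the GC trend brought these to 0.32 (SE 0.46) and 0.51 (SE 0.56), and leaving out p974s865 brought them to 1.12 (SE 0.33) and 1.36 (SE 0.48). From ctrl to 0p5h the difference between genotypes was −0.21 (SE 0.53).

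**Figure D2:**
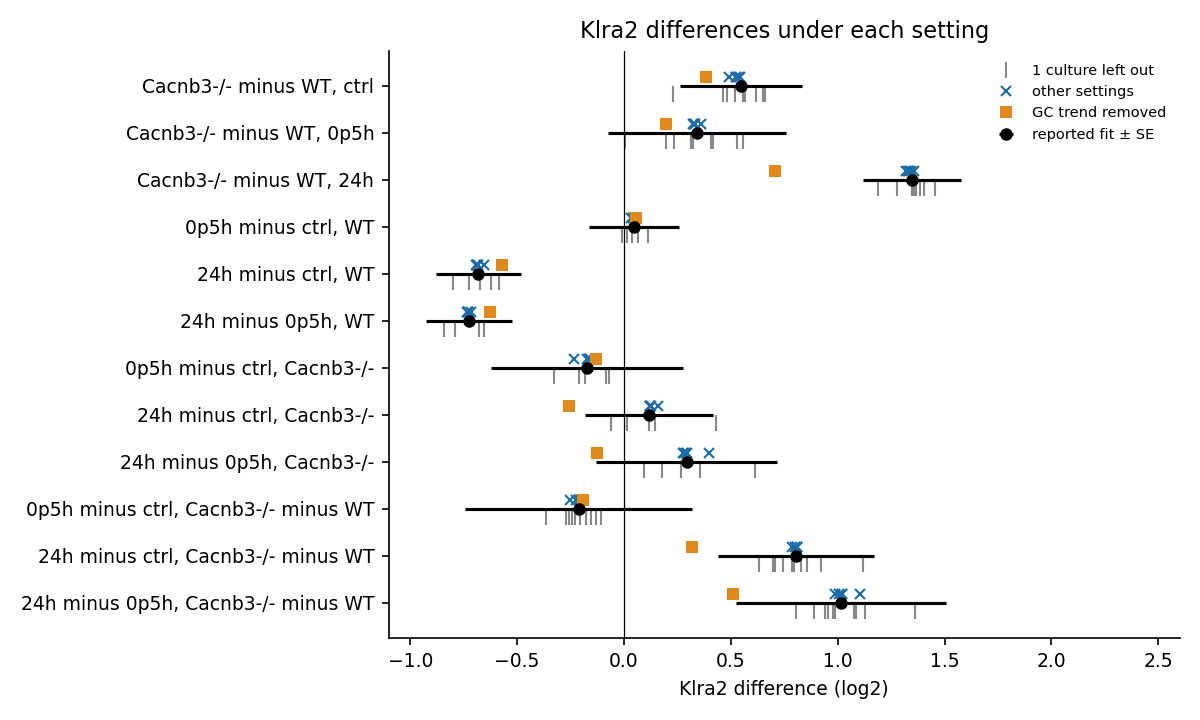
Klra2 differences on the log2 scale (x axis) for the 12 comparisons (y axis): black points and bars are the reported fit ± SE, grey ticks leave out 1 culture each, blue crosses are the other settings and orange squares have the GC trend removed. The difference at 24h between genotypes stayed between 1.19 and 1.45 without each culture and was 0.71 with the GC trend removed.

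Klra17 and Klra3 were the other members of the Klra list that passed the filter on low counts. The other 10 (Klra1, Klra4 to Klra10, Klra13-ps and Klra14-ps) had at most 3 reads in any library, so nothing can be said of their changes at this depth. Per kilobase of exon, the mean over libraries was 5.07 CPM for Klra17, 1.95 for Klra2 and 0.71 for Klra3. Reads that several Klra genes share could not be assigned with certainty, which bears most on Klra3, since members of the Ly49 cluster are alike in sequence.

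Klra17 encodes Ly49Q, an inhibitory member with an ITIM known from plasmacytoid dendritic and myeloid cells. In the libraries named ctrl it reached 3.13, 3.996, 1.23, 2.999 and 6.47 CPM in WT, and 5.84, 5.76, 4.41, 4.04 and 10.8 CPM in Cacnb3-/-, in the orders of cultures given above. In those named 24h it reached 4.62, 7.91, 3.48, 4.998 and 9.91 CPM in WT, and 12.4, 8.02, 5.37, 4.22 and 12.95 CPM in Cacnb3-/-. The genotypes overlapped in both sets, and in WT the mean went from 3.56 to 6.18 CPM where that of Klra2 went from 3.20 to 1.98. None of its changes was called: the difference between genotypes at 24h was 0.49 on the log2 scale (SE 0.36, adjusted p = 0.323, edgeR), and from ctrl to 24h in WT it was 0.81 (SE 0.41, adjusted p = 0.619, edgeR). Across the 30 libraries Klra17 and Klra2 had r = 0.44, and over the 10 culture means r = 0.76. Klra3, which encodes Ly49C, had a mean of 0.88 CPM and r = −0.12 with Klra2. In the libraries named 24h it had 0.66 ± 0.46 CPM in WT and 1.58 ± 0.94 CPM in Cacnb3-/- (SD, n = 5 each), and the genotypes overlapped. The fitted difference there was 1.23 on the log2 scale (SE 0.54, adjusted p = 0.116, edgeR) and was not called.

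The other lists held 30 lectins of the NK gene complex, 21 inhibitory receptors of myeloid cells (16 found in the table), 9 signalling partners and 18 genes of MHC class I and its loading. Of 61 listed genes tested at 24h between genotypes, 0 were called (background 0%) and 34 had an unadjusted p under 0.05, or 55.7%, against 38.4% of all genes. With the GC trend removed these counts were 0 called and 19 at an unadjusted p under 0.05, or 31.1%, against 26.1% of all genes. DESeq2 called 4 of them, Cd200r1, Clec1b, Clec2i and Clec4a2, all higher in Cacnb3-/-, which is 6.25% of the listed genes it tested against 4.46% of all genes. Without culture p974s865, edgeR called 8, Cd200r1, Clec1b, Clec2d, Clec2i, Clec4a2, Clec9a, Fcgr2b and Klre1, all higher, or 13.1% of listed genes against 8.83% of all genes. Without WT culture p974s864 it called 5 of these 8, or 8.2% against 5.74% of all genes. In ctrl 0 of 62 were called (background 0%), with 16 at an unadjusted p under 0.05, or 25.8% against 16.6% of all genes. In 0p5h 0 of 62 were called (background 0%), with 9 at an unadjusted p under 0.05, or 14.5% against 16.4% of all genes. DESeq2 called 1 listed gene, Nlrc5, a transactivator of MHC class I genes, as lower in both sets, where it called 1.02% and 0.625% of all genes. These genes outside the rule for names were named after their values were seen. The gene lists themselves were chosen with earlier results of these data known. Here and below, a share of listed genes above that of all genes is therefore a description and no support for a change of a list.

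By list, the median difference at 24h was 0.73 on the log2 scale for the 16 lectins tested, 0.28 for the 16 inhibitory receptors, −0.35 for the 9 signalling partners and −0.38 for the 18 MHC class I genes, beside 0.01 over all genes. From ctrl to 24h in WT, where Klra2 was lower, the medians were −0.02, −0.41, −0.07 and 0.05 beside 0.00 over all genes. Of the inhibitory receptors, 15 of 16 had a negative change there, against 50.7% of all genes, with 0 of them called (4 at an unadjusted p under 0.05). All 4 monocyte markers described below had a negative change in this comparison too (median −0.79), with 0 called and 0 at an unadjusted p under 0.05, and their part in the change of the receptors was not tested. In Cacnb3-/- cultures the fitted Klra2 change from ctrl to 24h was 0.12 (SE 0.30). There, 13 of 16 inhibitory receptors were also negative (median −0.20), against 51.6% of all genes, with 0 called. All 9 signalling partners were negative in both genotypes, and 2 of 4 monocyte markers were negative in Cacnb3-/-.

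Between 0p5h and 24h in WT, 2 of 60 listed genes were called, or 3.33% where the background was 0.639%. Both fell. They come from the list of lectins of the NK gene complex, so that their place in this complex, on the chromosome of Klra2, was set by the list. Across the 30 libraries r with Klra2 was 0.47 for Clec7a and 0.20 for Olr1. Clec7a encodes Dectin-1, a receptor for fungal β-glucans. It reached 269, 443, 378, 354 and 482 CPM in 0p5h and 97.8, 171, 129, 81.6 and 207 CPM in 24h, without overlap (−1.48 on the log2 scale, SE 0.26, adjusted p = 0.0178, edgeR with Benjamini-Hochberg adjustment). Olr1 encodes the scavenger receptor LOX-1. It reached 91.8, 112, 170, 166 and 81.4 CPM in 0p5h and 34.99, 44.0, 69.7, 28.4 and 21.6 CPM in 24h, again without overlap (−1.64, SE 0.32, adjusted p = 0.0317, edgeR with Benjamini-Hochberg adjustment). In Cacnb3-/- the means in ctrl, 0p5h and 24h were 240, 392 and 232 CPM for Clec7a and 43.9, 91.3 and 29.7 CPM for Olr1. In WT they were 245, 385 and 137 CPM and 76.3, 124 and 39.8 CPM, so both genes were highest in 0p5h in either genotype. Klra2 had 3.20, 3.28 and 1.98 CPM in WT. Without culture p974s846, p974s850 or p974s856, 0 were called, and without p974s855 only Olr1 was. With a replicate block for the culture, 4 were called, with Klrb1b lower and Klrc1 higher added, or 6.67% against 1.78% of all genes. From ctrl to 24h in WT, 0 of 61 were called without the block (background 0.0152%), and 15 had an unadjusted p under 0.05, or 24.6% against 8.39% of all genes. With the block 3 were called, Klrb1b and Klrg2 lower and Klrc1 higher, or 4.92% against 0.926% of all genes. From ctrl to 0p5h, edgeR and DESeq2 called 0 listed genes in either genotype, where the background of edgeR calls was 0.176% in WT and 0.29% in Cacnb3-/-. At an unadjusted p under 0.05 there were 2 of 61 in WT, or 3.28% against 4.54% of all genes, and 0 of 62 in Cacnb3-/-, against 3.99% of all genes. In Cacnb3-/- cultures 0 of 61 were called from 0p5h to 24h (background 0.66%), and 15 had an unadjusted p under 0.05, or 24.6% against 17.5% of all genes. With the block 4 were called, Klrc1 and Klre1 higher and Klrg2 and Olr1 lower, or 6.56% against 2.88% of all genes.

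The genes that varied with Klra2 were ranked by Pearson's r of log2 CPM over the 30 libraries, among 9615 genes with a mean of at least 5 CPM. These libraries come from 10 cultures, and the points share library depth, base composition and cell mixture, so the values are a description. The median r was −0.03, with quartiles of −0.24 and 0.20, and 110 genes had an r of at least 0.7 and 52 an r of −0.7 or less. The library total had r = −0.16 with Klra2 (−0.32 without the 2 libraries farthest from the Klra2 median and 0.095 with group means subtracted). The GC slope had r = −0.18, which became −0.39 and 0.33 in the same way. The level of Cacnb3 itself, which was lower in the libraries labelled Cacnb3-/-, had r = −0.68 (−0.77 without the 2 farthest and −0.51 with group means subtracted).

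The 11 genes described at the upper end were Pag1, Atg4c, Cpd, Ccr1, Bst1, Mitf, Slc31a1, Sypl1, Raph1, Atp8b4 and Ptpro, with r from 0.82 to 0.86. Ccr1 is a receptor for inflammatory chemokines. Pag1 is a membrane adaptor that binds the kinase Csk, and Ptpro is a receptor-type tyrosine phosphatase. Mitf is a transcription factor of melanocytes and of mast and osteoclast lineages, Bst1 is the surface ADP-ribosyl cyclase CD157, and Raph1 is lamellipodin, which promotes actin protrusion. Atg4c is a protease of autophagy, Cpd a carboxypeptidase, Slc31a1 the high-affinity copper importer, Sypl1 a vesicle membrane protein and Atp8b4 a putative phospholipid flippase. Their GC content was between 39.2% and 49.6%.

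Pag1 (Spearman 0.83) ran with Klra2 at higher levels. It had 19.8 ± 4.31, 17.3 ± 3.38 and 12.3 ± 0.79 CPM in WT ctrl, 0p5h and 24h, and 20.2 ± 8.66, 18.5 ± 8.10 and 19.4 ± 6.08 CPM in Cacnb3-/- (SD, n = 5 each). Its libraries ranged from 11.2 to 35.4 CPM, and the highest, as for Klra2, was the ctrl library of culture p974s865. Atg4c (Spearman 0.85) had 13.5 ± 0.99 CPM in WT 24h and 19.3 ± 4.44 CPM in Cacnb3-/- 24h. At 24h the difference between genotypes was 0.66 on the log2 scale for Pag1 (SE 0.19), 0.53 for Atg4c (SE 0.16) and 1.10 for Ccr1 (SE 0.25). Genes of high and low r were ranked over libraries that include those named 24h. Their differences at 24h are therefore no independent support for that of Klra2.

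The 8 lowest were Drosha, Nuak2, Tmem131l, Tbc1d1, Iffo2, Nans, Arhgef40 and Adam19, with r from −0.85 to −0.78. Drosha is the nuclease that starts microRNA processing, Nuak2 a kinase related to AMPK, Tbc1d1 a Rab GTPase-activating protein, Nans the sialic acid synthase, Arhgef40 a guanine nucleotide exchange factor and Adam19 a membrane metalloprotease. Drosha varied in a narrow range, from 27.1 to 39.5 CPM, with 37.3 ± 1.39 CPM in WT 24h and 31.3 ± 1.76 CPM in Cacnb3-/- 24h (SD, n = 5 each). The GC content of these 8 genes, from 49.9% to 56.5%, lay wholly above that of the 11 at the upper end.

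**Figure D3:**
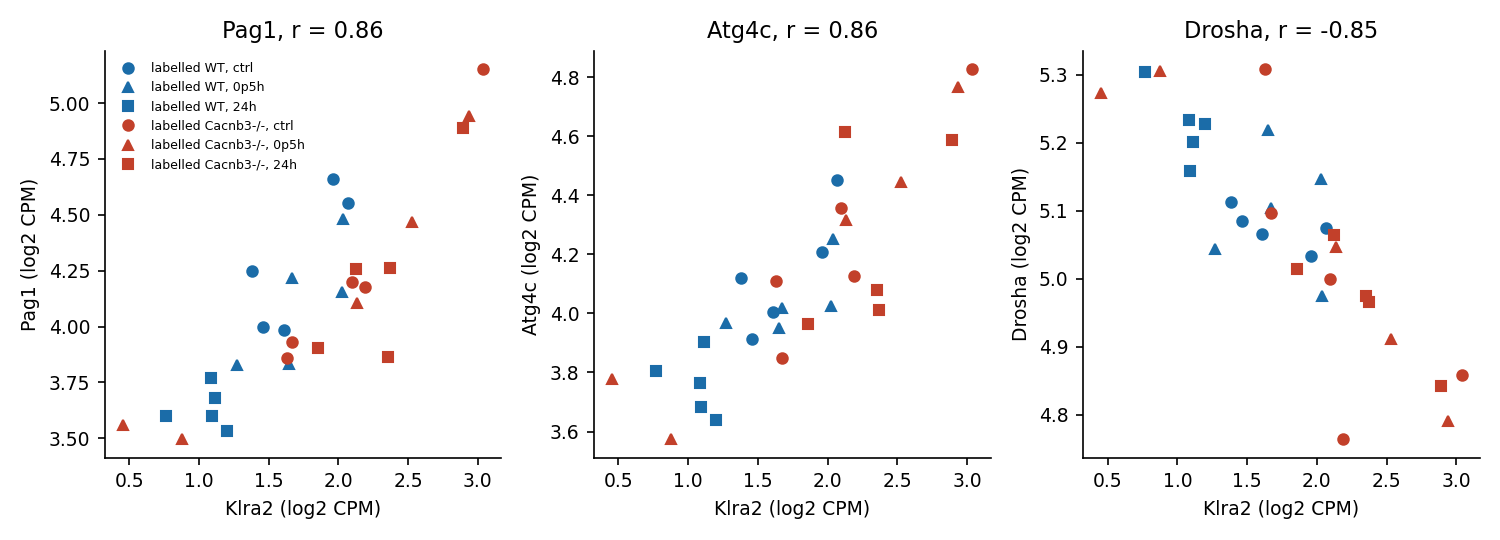
Log2 CPM of Klra2 (x axis) against log2 CPM of Pag1, Atg4c and Drosha (y axes), 1 point per library, with colour for the genotype label and shape for the set. Pag1 and Atg4c rise along Klra2 (r = 0.86 for both) and Drosha falls along it (r = −0.85), and the WT libraries named 24h form the low end of WT on the Klra2 axis.

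The correlations were also computed in other ways. Without the 2 libraries farthest from the Klra2 median (p974s852 in 0p5h and p974s865 in ctrl, at 1.27 and 8.12 CPM), the 11 genes had r from 0.78 to 0.87 and the 8 genes from −0.87 to −0.73. Over the 10 culture means the ranges were 0.83 to 0.93 and −0.95 to −0.80. With the GC trend removed they were 0.73 to 0.87 and −0.85 to −0.75. All 19 kept their sign within each genotype, but 6 of them had an r below 0.7 in size within WT, against 0 within Cacnb3-/-. Within the 15 WT libraries Pag1 had r = 0.86 and Drosha r = −0.70, and within the 15 Cacnb3-/- libraries 0.89 and −0.86. Iffo2 and Nuak2 were weaker within WT (r = −0.44 and −0.47) than within Cacnb3-/- (−0.85 and −0.87), a difference that was not tested.

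With the mean of each group subtracted, so that only the spread among cultures of a group is left, the 7 genes described at the upper end were Pag1, Naaa, Cybb, Slc31a1, Cpd, Atp1b3 and Spata13, with r from 0.85 to 0.88, and 3 of these 7 were among the 11 above. Naaa is a lysosomal amidase, Cybb the catalytic subunit of the phagocyte NADPH oxidase, Atp1b3 a sodium pump subunit and Spata13 a Rac and Cdc42 exchange factor. The 5 lowest were Tpm1, Pfkfb3, Tbc1d1, Flt3 and Sh3pxd2a, with r from −0.84 to −0.83. Flt3, the receptor for the growth factor of dendritic cells, ran from 22.7 to 136 CPM and was lowest where Klra2 was high within a group (r = −0.84). With the GC trend removed Atp1b3 had r = 0.52, the weakest of these 7.

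**Figure D4:**
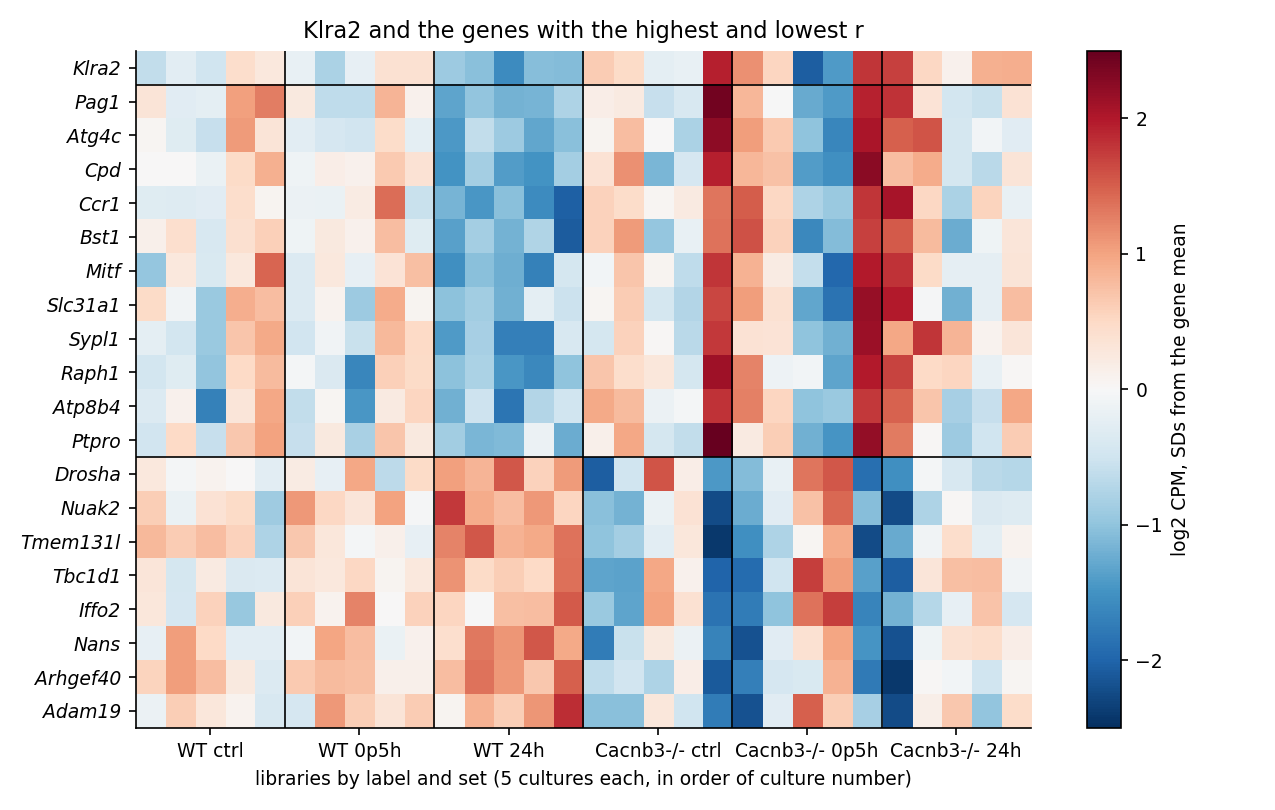
Klra2 (top row), 11 genes with a high r and 8 with a low r (rows) in the 30 libraries (columns, grouped by label and set, cultures in order of number), coloured by SDs of log2 CPM from the mean of each gene. The WT libraries named 24h are low and the ctrl and 0p5h libraries of culture p974s865 (last column of their groups) are high for Klra2 and the 11 genes, and the 8 genes run the other way.

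Markers of cell types moved with Klra2 as well. The summed level of 4 monocyte markers (Ly6c2, Ccr2, Vcan and Cx3cr1) ran from 73.0 to 488 CPM and had r = 0.86 with Klra2 (Spearman 0.83), and all 4 had a positive r, from 0.31 for Ly6c2 to 0.72 for Ccr2. In the libraries named 24h this sum was 81.1 to 178 CPM in WT (median 109) and 98.0 to 419 CPM in Cacnb3-/- (median 195). Ccr2, the most abundant of the 4 at a mean of 105 CPM, differed by 2.21 on the log2 scale there (SE 0.47), and 2 of the 4 markers were higher and 2 lower in Cacnb3-/- (median 0.19) and 0 were called. The summed level of 11 macrophage markers ran from 1140 to 5241 CPM with r = 0.61, and all 11 had a positive r. In contrast, the 10 markers of mature migratory dendritic cells, among them Ccr7 and Ccl22, all had a negative r, from −0.76 to −0.12, and their sum had r = −0.68. At 24h that sum was 20585 to 29402 CPM in WT and 11101 to 19053 CPM in Cacnb3-/-, without overlap. Of these 10 markers 7 were lower and 3 (Cd83, Cd86 and Socs2) higher in Cacnb3-/- at 24h, with 0 called, and Ccl22, Ccr7 and Fscn1 had the highest levels in the sum. The part of these cell mixtures in the level of Klra2 was not tested.

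The 8 dendritic cell markers summed to between 15405 and 43127 CPM, with r = −0.01 with Klra2 (0.45 with group means subtracted). Cd74 and H2-Aa had the highest levels in this sum, at means of 12679 and 7422 CPM. Single members differed: 3 had a positive and 5 a negative r, from −0.68 for Flt3 and −0.37 for Zbtb46 to 0.44 for Itgax. Flt3 went down to 22.7 CPM and Ciita to 16.2 CPM in their lowest libraries. NK cells, the usual source of Ly49 transcripts, were near the limit of detection. The 9 NK cell markers summed to at most 1.46 CPM in any library, below the 3.69 CPM mean of Klra2 alone, and Ncr1, the defining receptor gene, had at most 3 reads and was at 0 in 22 of 30 libraries. Their sum had r = −0.24 with Klra2. Cd3e of T cells had at most 5 reads and was at 0 in 9 libraries. The T cell list summed to between 7.10 and 24.9 CPM, mostly from Cd8a. The lists of granulocytes (139 to 721 CPM, r = −0.01), basophils and mast cells (8.001 to 57.9 CPM, r = −0.26), eosinophils (1.28 to 9.01 CPM, r = 0.29), B cells (0.61 to 5.10 CPM, r = 0.00), plasmacytoid dendritic cells (57.3 to 120 CPM, r = 0.57) and cycling cells (14.4 to 32.5 CPM, r = −0.09) were also followed. The plasmacytoid list holds Klra17.

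Among genes of the receptor's own pathway, the inhibitory receptors of myeloid cells lay closest to Klra2. Their summed level ran from 1107 to 2472 CPM with r = 0.82, and 14 of 16 had a positive r, led by Sirpa (0.75), the receptor for CD47, Fcgr2b (0.74), the inhibitory Fc receptor, and Cd200r1 (0.72). Siglecg (−0.25) and Ceacam1 (−0.51) ran the other way. With the GC trend removed, r was 0.51 for Sirpa, 0.76 for Fcgr2b and 0.58 for Cd200r1. Sirpa had the highest level in the sum, at a mean of 660 CPM. Of the signalling partners, the adaptor chain Fcer1g had r = 0.78 and the phosphatase Inpp5d (SHIP-1) r = 0.49, while Ptpn6 (SHP-1), the phosphatase recruited by ITIMs, had r = 0.01 and Dok1 r = −0.44. With the GC trend removed these were 0.61, 0.83, 0.25 and −0.46. Tyrobp was the highest of these per kilobase, at 522 CPM, with r = 0.15. Of the 18 MHC class I genes 16 had a negative r. Of the 19 lectins kept, 13 had a positive r, with Clec9a (0.75) and Clec12a (0.67) at the top and Klrk1, the gene of NKG2D, at the bottom (−0.43).

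**Figure D5:**
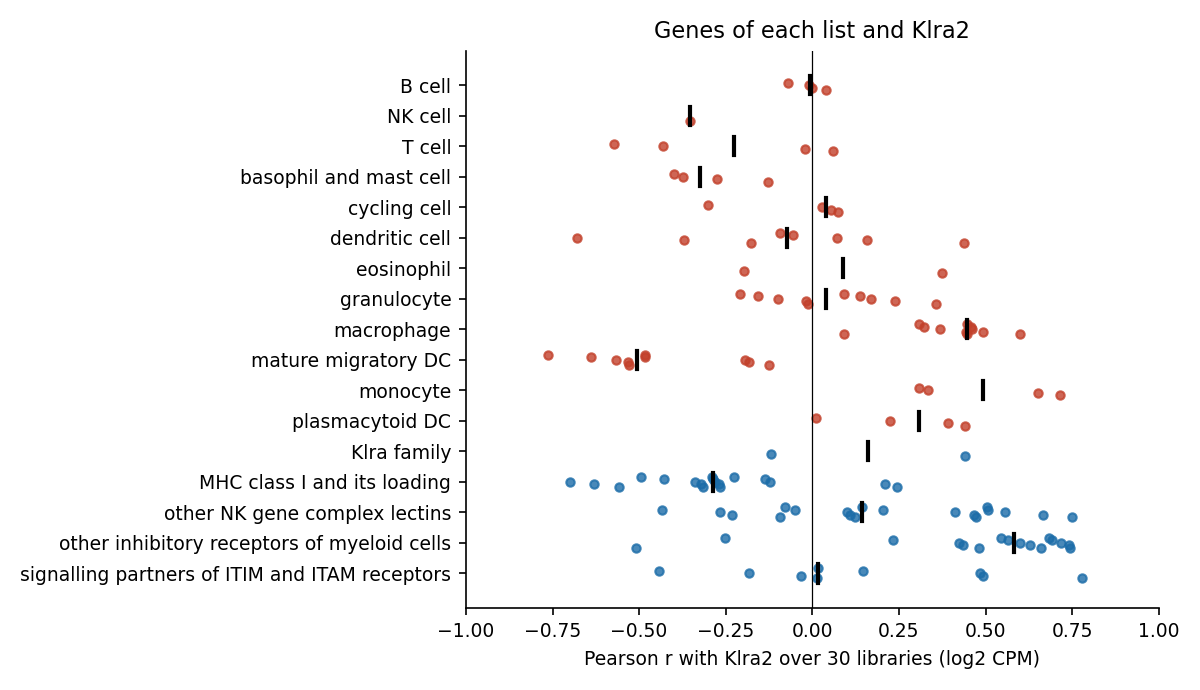
Pearson's r with Klra2 over 30 libraries (x axis, log2 CPM) for each kept gene of the cell type marker lists (red) and pathway lists (blue), with the median of each list as a black bar. All 10 markers of mature migratory dendritic cells lie below 0, all 11 macrophage markers above 0, and the inhibitory receptors of myeloid cells have a median of 0.58.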

How the data were processed

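The authors deposited raw read counts per gene, which the file headers credit to featureCounts 1.5.1 over the exons of GRCm38 (Ensembl release 79), with no option for strand, multiple alignments, overlaps or pairs. The labels name STAR 2.4, DESeq2 and mm10 (the submitters' processing notes) and a HiSeq kit, the methods GRCm39 and a NovaSeq. Strand was not used, so antisense reads could not be told apart. Total counts were 8237393 to 32164225 per library. Symbols and GC content came from GENCODE, and RefSeq promoters of GRCm38.p6 were used.

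Groups followed the labels' genotype and library names. edgeR 4.0.16 (R 4.3.3, TMM, filterByExpr, quasi-likelihood test) compared genotypes within sets (5 against 5) and sets within genotypes. Genes were called at an adjusted p under 0.05 and at least 2-fold over all genes tested. Levels are TMM-scaled CPM, and log2 CPM used a prior count of 2. Intervals are exact Poisson at 95%. Klra2 and all gene lists were chosen with earlier results of these data known. Named were Klra2, the Klra genes, 12 highest and 8 lowest r, 8 and 5 after subtracting group means, 5 neighbours on each side, listed genes called (at most 5 per comparison), highest list members per length, Cacnb3 and Nnt. A few genes are not reported here. Alternatives were DESeq2 1.42.0, its size factors, no filter, all 30 libraries in one fit, GC trend removed, a replicate block, each culture left out, and, for correlations, Spearman, subtracted group means and a prior count of 0.5. Lane as a covariate and GC removal for correlations were added after seeing the data. The same culture number marked libraries that deviated together: 29 of 30 pairs had a correlation over 0.1 (median 0.609), with 0.0746 for Cacnb3-/- culture p974s843 between ctrl and 24h, so numbers were taken to pair libraries except between ctrl and 24h in Cacnb3-/-. The reported fits had no block, and the block was run as an alternative in every comparison of sets. Replicate libraries differed by far more than sampling noise. The fits were tested on simulated data. Scripts used Python 3.11.15, pandas 2.3.3, scipy 1.17.1 and matplotlib 3.10.9.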

Additional observations from a re-analysis of the deposited data

Results flagged for a closer look

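Among 60 groups of 5 values checked for a sample far from the others, 4 had one, where chance gives about 1 in 20. In 3 of them it was the library of Cacnb3-/- culture p974s865 named ctrl. Its Klra2 level was 8.12 CPM, with the nearest other library of the group at 4.46 CPM. Klra17 was at 10.8 CPM there, with the nearest at 5.84 CPM. Pag1 was at 35.4 CPM, against a group median of 17.97 CPM. These 3 values share 1 library, and Pag1 was named for its r with Klra2 over the same libraries, so they are not independent. The monocyte marker sum reached 488 CPM in Cacnb3-/- ctrl at its highest, and its part in these levels was not tested. The other was Atg4c in WT libraries named 0p5h, with 18.9 CPM in its highest library against a group median of 16.1 CPM.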

How the results depend on the processing

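Klra2 differences moved by less than the SD between replicates in 160 of 162 alternative values. The exceptions had the GC trend removed: 0.71 for genotypes at 24h, and 0.32 for the genotype difference in the change from ctrl to 24h. This measure is wide, as values that vanished or changed sign were not counted as moved. The genotype difference in 0p5h went from 0.34 to 0.00 without p974s865. With the GC trend removed, the Cacnb3-/- changes to 24h went from 0.12 to −0.26 (from ctrl) and from 0.29 to −0.13 (from 0p5h). Leaving out each culture gave 0.23 to 0.66 between genotypes in ctrl, 0.00 to 0.55 in 0p5h and 1.19 to 1.45 in 24h. Listed genes called between genotypes with each culture left out ran from 0 to 2 in ctrl and from 0 to 8 in 24h. At the highest counts they were 3.23% of listed against 1.88% of all genes in ctrl, and 13.1% against 8.83% in 24h. DESeq2 called 1 in ctrl (1.56% of listed against 1.02% of all genes), 1 in 0p5h (1.61% against 0.625%) and 4 in 24h (6.25% against 4.46%). In 24h, no filter called 3 (3.75% against 1.46%), and all 30 libraries in one fit called 3 (4.69% against 4.47%). Between sets in WT, DESeq2 called 2 for 24h against ctrl (3.03% against 0.204%) and 4 for 24h against 0p5h (6.56% against 1.14%). In Cacnb3-/- it called 2 for 24h against ctrl (3.23% against 0.378%) and 1 for 24h against 0p5h (1.56% against 1.49%). In the same order, a replicate block that pairs libraries by culture called 3 (4.92% against 0.926%), 4 (6.67% against 1.78%), 2 (3.28% against 1.11%) and 4 (6.56% against 2.88%). In the third (24h against ctrl, Cacnb3-/-) the numbers were not shown to pair the libraries. For 24h against 0p5h in WT, all 30 libraries in one fit called 1 (1.56% against 0.618%) and GC removal 3 (5% against 0.701%). Each culture left out gave 0 to 3 there (5% against 0.564% at the highest). The block moved no other listed count. All 19 genes named for a high or low r kept their sign and a size of at least 0.7 under another scaling, Spearman, subtracted group means, a prior count of 0.5, GC removal and each culture left out, but within WT libraries alone 6 of them were below 0.7. Counts of 17 to 192 reads limit what can be said of single libraries, and the cause of these shifts was not tested.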
